A study of Mus musculus with 12 samples.

Results

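Mbl2, the gene of mannose-binding lectin C, was followed in the mucosa of the mouse small intestine together with 9 further genes of the complement system. The genes were Mbl2, Mbl1, Masp1, Masp2, C2, C3, Cfb, Cfi, Hc and Cd55. Mbl2 was chosen by its own large fall on the high-fat diet in the middle segment, so its diet difference there is a description and carries no test. Of the 10 listed genes, 9 had a probe set that lists exactly 1 gene symbol, each of them 1 probe set. No probe set listing C3 alone was found with the annotation used, and C3 was not analysed here. An intensity over 50 on at least 1 of 12 arrays was required before a gene was tested, and 5 of the 9 genes passed this filter (Mbl2, C2, Cfb, Cfi and Cd55), against 11948 of 19938 genes in all. After 26 pancreatic acinar genes were removed, 11922 genes were tested.

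RNA from mucosal scrapings of male C57BL/6J mice was hybridised to Affymetrix Mouse Gene 1.0 ST arrays, on which a gene is read by a set of short probes whose summary is given as a log2 intensity. The mice were young (4 months) or old (21 months), and after a run-in on the low-fat diet that all of them shared, they were kept for 2 weeks on that diet, with 10% of its energy as fat, or on a high-fat diet with 45%. The small intestine was divided into a proximal, a middle and a distal segment. For each of the 4 groups of mice the RNA of 6 (young) or 8 (old) animals was pooled per segment and put on 1 array, so that 12 arrays stand for 4 pools and the segments of a pool share their mice. The spread between mice within a pool cannot be seen, and a lower level can mean fewer cells of a type or less RNA per cell, which cannot be told apart in scrapings. The low-fat diet was a purified diet, and no chow-fed group is among the arrays.

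The complement system is a cascade of plasma and membrane proteins that marks microbes and debris for removal. It is started by antibodies bound by C1q (the classical pathway), by sugars on microbial surfaces bound by mannose-binding lectins, collectins or ficolins with their serine proteases (the lectin pathway), or by spontaneous turnover of C3 amplified by factor B (the alternative pathway). All 3 routes lead to enzymes that split C3 and then C5, and end in the membrane attack complex, while soluble and membrane-bound regulators such as factor I and Cd55 restrain the cascade. Mannose-binding lectins are made chiefly by the liver, and epithelial cells of the gut are known to make some complement proteins of their own.

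Mice have a pair of mannose-binding lectin genes, and only Mbl2 had a level over the filter in these scrapings. The sequences upstream of the start of both genes are shown to set the paralogs side by side. That of C4bp is shown because C4bp was the complement gene outside the 10 that passed the test for diet in every segment. Its levels lay near the filter, and its middle and distal calls were lost in the fit without the filter. Each sequence is the 250 bases before the RefSeq gene start on the assembly GRCm38.p6, written on the strand of the gene. Capitals mark matches to 6 motifs, searched on both strands: TATAAA (the TATA box), AGGTCA (for nuclear receptors), GTTAAT (for HNF1), AGATAA (for GATA factors), CCAAT (for NF-Y) and CAAAGTCCA (for HNF4).
Mbl2, chr19:30232678-30232927, + strand: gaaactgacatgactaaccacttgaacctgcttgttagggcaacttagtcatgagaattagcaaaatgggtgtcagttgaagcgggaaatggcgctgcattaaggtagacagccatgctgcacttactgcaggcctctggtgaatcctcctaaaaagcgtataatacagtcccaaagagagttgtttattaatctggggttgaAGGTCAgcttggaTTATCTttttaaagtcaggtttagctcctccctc
Mbl1, chr14:41151206-41151455, + strand: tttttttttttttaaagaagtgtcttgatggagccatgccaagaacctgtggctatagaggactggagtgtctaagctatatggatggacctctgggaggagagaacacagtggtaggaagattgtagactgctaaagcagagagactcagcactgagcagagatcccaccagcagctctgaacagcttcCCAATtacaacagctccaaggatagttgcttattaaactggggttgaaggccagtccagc
C4bp, chr1:130661619-130661868, - strand: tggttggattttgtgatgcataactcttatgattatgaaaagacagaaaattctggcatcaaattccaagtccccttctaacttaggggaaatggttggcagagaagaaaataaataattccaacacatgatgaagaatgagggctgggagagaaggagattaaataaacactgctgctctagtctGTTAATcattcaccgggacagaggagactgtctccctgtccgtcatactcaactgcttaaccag
Counted from the gene start, the Mbl2 window held the nuclear receptor motif at position -47 and the GATA motif on the opposite strand at position -34. The Mbl1 window held the NF-Y motif at -60 and the C4bp window the HNF1 motif at -64. Of 32851 promoter windows of the same length, 14.02% held the nuclear receptor motif on either strand, 9.99% the GATA motif, 33.85% the NF-Y motif, 6.43% the HNF1 motif, 12.37% the TATA box and 0.38% the HNF4 motif. Promoters of 6 of the 10 genes were given (Mbl2, Mbl1, Masp2, Hc, Cd55 and C3). The table used held none for Masp1, C2, Cfb and Cfi.

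Transcripts of the absorptive epithelium were abundant: 10 of 10 enterocyte markers were over the filter, with a summed intensity between 69077 and 89503 on the 12 arrays. Of 10 hepatocyte markers with a probe set, 8 lay below an intensity of 50 on every array, among them albumin (Alb, log2 4.00 to 4.83) and the fibrinogen chains, and the remaining pair were Cps1, which enterocytes also express, and Tat. Pancreatic acinar transcripts were abundant in the proximal arrays, with a summed intensity of 58426 to 68006 in low-fat and 85113 to 124361 in high-fat mice, against 3320 to 6536 in the other segments. The part of pancreatic RNA in the proximal values below was not tested.

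Mbl2 was highest in the middle segment of low-fat mice. In the proximal segment its log2 level was 7.91 in young and 7.83 in old low-fat mice, and 7.03 and 6.13 in young and old high-fat mice. In the middle segment young and old low-fat mice had levels of 9.29 and 9.54, and young and old high-fat mice 6.19 and 6.56. For the distal segment these were 6.50 and 6.70 against 5.57 and 5.90. In every segment both low-fat arrays lay above both high-fat arrays. In intensity units the middle low-fat arrays read 626 (young) and 746 (old) and the middle high-fat arrays 72.9 and 94.5, and the lowest array, distal young high-fat, read 47.5, under the filter of 50.

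**Figure D1:**
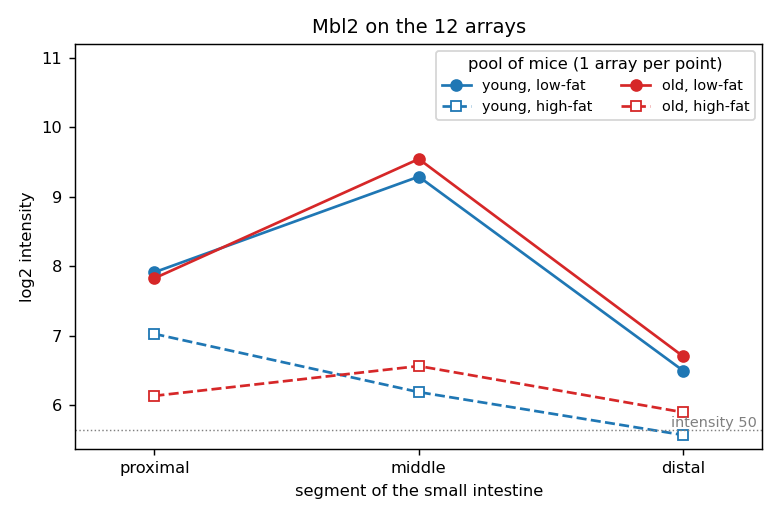
Log2 intensity of Mbl2 (vertical axis) in the 3 segments (horizontal axis), 1 array per point, with lines joining the segments of each pool of mice. Filled circles are low-fat and open squares high-fat pools, blue young and red old. The low-fat pools peak in the middle segment at 9.29 and 9.54, while the high-fat pools stay at or below 7.03 in all segments.

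Ordered by level, the 12 arrays began with the middle low-fat pair, old (9.54) before young (9.29), followed 1.38 log2 units lower by the proximal low-fat pair. Of the 11 gaps between neighbours in this order, 7 were larger than the residual SD of Mbl2 in the fit within segments, 0.17, and 4 were not. The young and old proximal low-fat arrays were among those that did not differ beyond this spread, as were the distal low-fat arrays from the old middle high-fat array (6.56). The young middle high-fat array (6.19) and the old proximal high-fat array (6.13) also lay within it.

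The difference in the middle segment, which chose the gene, was -3.10 in young and -2.98 in old mice on the log2 scale, an 8.58-fold and a 7.89-fold lower level. The fitted difference was -3.04 with a standard error of 0.17, the second lowest of 11922 genes. Over the 3 segments averaged per pool it was -1.73 (SE 0.06), a value that contains the same middle arrays. Ileal markers, which are borne mainly by the distal part of the gut, varied between the same 4 arrays: Fabp6 read 9.49, 11.31, 8.84 and 7.58 in young low-fat, young high-fat, old low-fat and old high-fat mice. The summed intensity of all 11 ileal markers was 29243 to 30148 in the middle low-fat and 22281 to 30037 in the middle high-fat arrays. Of the 11, 8 were lower and 3 higher on the high-fat diet (median -0.16). In the limma test Slc10a2 and Tmigd1 rose and none fell. The part of the ileal markers in the difference of Mbl2 was not tested.

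The proximal and distal arrays were not used to choose Mbl2, although they come from the same mice. In the proximal segment its difference was -0.89 in young and -1.69 in old mice, 1.85-fold and 3.23-fold. The limma fit gave -1.29 (SE 0.17), a 2.44-fold lower level on the high-fat diet with a 95% confidence interval from -1.68 to -0.90 on the log2 scale and an adjusted p of 0.0291. Mbl2 was the only one of the 5 tested genes called there, while 0.319% of all tested genes were called. The error of this fit is shared with the middle and distal arrays, and the call ended without any 1 of the 4 middle arrays or the whole middle segment (adjusted p 0.0949 in each case), without any 1 of the 4 distal arrays (0.0753), and with the proximal arrays alone (0.180), where the difference remained -1.29.

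In the distal segment the difference of Mbl2 was -0.93 on the log2 scale in young and -0.80 in old mice, 1.90-fold and 1.75-fold, with both low-fat arrays above both high-fat arrays. The fitted difference of -0.87 (SE 0.17, limma, adjusted p 0.0859) did not pass the threshold, and 0 of the 5 genes were called for diet in this segment, against 0.528% of all genes. At an unadjusted p under 0.05 there were 2, Mbl2 and C2, beside 2090 of all 11922 genes. With the distal arrays alone the adjusted p of Mbl2 was 0.0178. The diet difference in the distal segment was 0.42 smaller in size than that in the proximal segment (95% confidence interval -0.13 to 0.97, limma, adjusted p 0.608). It was 0.83 without either proximal array of young mice and 0.02 without either proximal array of old mice (adjusted p 0.271 and 0.985), and 0.0503% of all genes were called in that comparison.

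A change of more than 2-fold between a pair of arrays was reached by Mbl2 in 3 of the 6 diet pairs and by no other tested member in any of them. Mbl2 passed in old mice in the proximal segment, where 0.277% of all tested genes passed, and, as the rule fixed, in the middle segment in young (0.461%) and old mice (0.554%). The shares of genes past 2-fold were 0.419% in young mice in the proximal segment, 0.185% in young and 0.596% in old mice in the distal segment, where no member passed.

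No age difference of Mbl2 passed the test. From proximal to distal, old minus young was -0.09, 0.25 and 0.21 for the low-fat and -0.89, 0.37 and 0.33 for the high-fat pairs. The proximal arrays were lower in old mice and the middle and distal arrays higher, and the only difference over 0.5 was that of the proximal high-fat pair. The fitted values were -0.49 (SE 0.17, adjusted p 0.418), 0.31 (adjusted p 0.637) and 0.27 (adjusted p 0.415) by limma. The age difference in the middle segment exceeded that in the proximal segment by 0.80 (limma, adjusted p 0.843). The age difference in the distal segment exceeded that in the proximal segment by 0.76 (limma, adjusted p 0.528). These comparisons called 0.0252% and 0% of all genes. None of the 5 members was called for age in a segment by limma, where 0.109% of all genes were called in the proximal segment, 0.0252% in the middle one and 0.654% in the distal one. At an unadjusted p under 0.05 there was 1 member for the proximal segment (Mbl2), 0 for the middle and 1 for the distal segment (Cfi). Of all 11922 genes, 1035, 1049 and 2262 were under it from proximal to distal.

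Along the intestine, Mbl2 dropped towards the distal end. Distal minus middle was -2.79 and -2.84 in the young and old low-fat pools, and -0.62 and -0.67 in the high-fat pools. Distal minus proximal was -1.42 and -1.12 in the low-fat and -1.46 and -0.24 in the high-fat pools. The mean over the 4 pools was -1.73 for distal minus middle, given with no test because the middle arrays chose the gene. Of the 4 other members 3 were called in that comparison (C2, Cfb and Cd55), and 34.6% of all genes. Distal minus proximal was -1.06 (SE 0.40, limma, adjusted p 0.0451), with 4 of 5 members and 54.8% of all genes called. The error of this fit is shared with the middle arrays that chose Mbl2, so its adjusted p is not free of that choice. The residual SD of Mbl2 was 0.57 in it, against 0.17 in the fit within segments. The call of Mbl2 ended without the intensity filter (adjusted p 0.0540) and with an intensity trend and robust variance (0.105). It also ended in 7 of the 12 fits that left out 1 array (adjusted p 0.0508 to 0.162). The array left out was any of the 4 proximal ones or a distal one other than old high-fat. The middle segment exceeded the proximal by 1.38 and 1.72 in the low-fat pools, and by -0.84 and 0.43 in the young and old high-fat pools (mean 0.67, with no test).

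Of the other members, Mbl1, Masp1, Masp2 and Hc were not above the filter on any of the 12 arrays. Outside the members, the collectin gene Colec11 and the ficolin gene Fcna were over it on all 12 arrays, and the collectin gene Colec10 on 2. Mbl1, which encodes mannose-binding lectin A, lay between log2 3.28 and 3.68. Masp1 and Masp2, the serine proteases that are activated when a mannose-binding lectin binds its target, lay between 4.41 and 4.87 and between 4.37 and 4.72. Hc, which encodes C5, lay between 3.98 and 4.29. The filter corresponds to log2 5.64, so these probe sets give no level that could be compared between groups, and no statement on the presence of the transcripts follows from that.

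C2 and Cfb, neighbouring genes of the major histocompatibility complex, encode the catalytic subunits of the C3 convertases of the classical and lectin pathways and of the alternative pathway. Their profiles along the intestine ran opposite ways. C2 rose towards the distal end: its levels for young low-fat, young high-fat, old low-fat and old high-fat mice were 6.38, 6.27, 6.17 and 6.38 in the proximal segment, 6.63, 6.46, 6.76 and 6.14 in the middle one and 7.86, 7.28, 7.71 and 7.14 in the distal one. All 4 distal arrays were above all 8 others. Distal minus middle was 1.00 (SE 0.13, 2.00-fold, adjusted p 0.000232) and distal minus proximal 1.20 (SE 0.13, 2.29-fold, adjusted p 2.32e-05), both by limma.

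On the high-fat diet C2 was lower in 5 of 6 pairs of arrays. The distal low-fat arrays (7.86 and 7.71) lay above the distal high-fat arrays (7.28 and 7.14), a difference of -0.58 (SE 0.12) that missed the threshold in the fit within segments (adjusted p 0.103). In the middle segment it was -0.39 (SE 0.12, adjusted p 0.152) and in the proximal segment 0.05 (adjusted p 0.935). Over the pool means C2 fell by 0.31 (SE 0.05, 1.24-fold, limma, adjusted p 0.0186). It was the only one of the 4 members tested there to be called, Mbl2 being excluded because of its choice, and 5.68% of all genes were called. This call was lost without the middle segment (adjusted p 0.140), without the distal segment (0.176) and without the intensity filter (0.0680). In the fit within segments, 0 of the 4 other members were called for diet in the middle segment, where 2.54% of all genes were called. C2 and Cfb had an unadjusted p under 0.05 there, beside 2150 of all 11922 genes.

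Cfb, encoding factor B, was over the filter on every array and varied little. In the same order of pools its intensity was 2199, 2014, 2239 and 2073 for the proximal segment, 2352, 2054, 2453 and 2080 for the middle and 1886, 1740, 1815 and 1691 for the distal segment, a span of 10.72 to 11.26 on the log2 scale. Cfb was lower in the distal segment, with -0.32 against the middle (SE 0.05, limma, adjusted p 0.000926) and -0.26 against the proximal segment (SE 0.05, adjusted p 0.00169). When the genes kept were quantile normalized again, these became -0.19 (adjusted p 0.0154) and -0.08 (adjusted p 0.199). Every one of the 6 high-fat arrays was below its low-fat partner (differences of -0.24 to -0.10), and no diet difference of Cfb passed the threshold (adjusted p 0.592, 0.158 and 0.445 in the proximal, middle and distal segment, and 0.127 over the pool means, where the difference was -0.15).

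**Figure D2:**
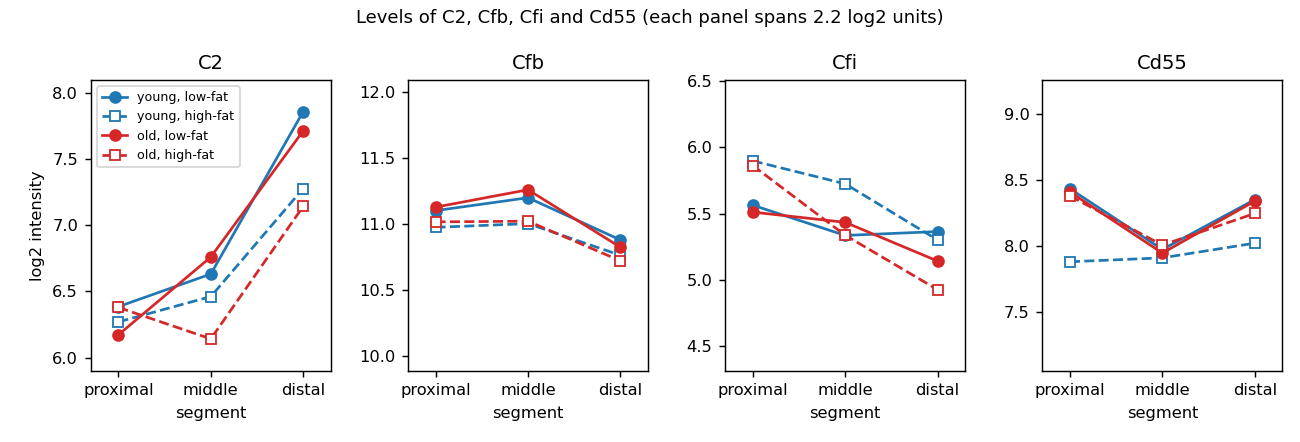
Log2 intensity of C2, Cfb, Cfi and Cd55 (vertical axes, each spanning the same range) in the 3 segments, 1 array per point, with the symbols of the 4 pools as in the plot of Mbl2. C2 is highest in the distal segment on all 4 pools and lower there on the high-fat diet (7.28 and 7.14) than on the low-fat diet (7.86 and 7.71), while Cfb spans only 10.72 to 11.26.

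The 2 regulators among the members were Cfi, encoding factor I, the protease that cleaves C3b and C4b, and Cd55, encoding decay-accelerating factor, a membrane protein that takes convertases apart. Cfi lay near the filter. It read 5.56, 5.90, 5.51 and 5.86 in the proximal segment, 5.33, 5.72, 5.43 and 5.34 in the middle one and 5.36, 5.30, 5.14 and 4.92 in the distal one. It passed the filter through 3 arrays, all of them high-fat (both proximal and the young middle array). Distal minus proximal was -0.53 (SE 0.11, limma, adjusted p 0.00174), negative in all 4 pools. No distal array of Cfi was over the filter, so that it entered this comparison through its higher segment, and in the fit of all genes without the filter the adjusted p was 0.00224. The diet difference was 0.34 (SE 0.12, adjusted p 0.326) in the proximal segment, 0.15 in the middle one and -0.14 in the distal one, none of them past the threshold.

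Cd55 read 8.43, 7.88, 8.41 and 8.38 in the proximal segment, 7.97, 7.91, 7.95 and 8.01 in the middle one and 8.35, 8.02, 8.34 and 8.25 in the distal one. It was lowest in the middle segment: middle minus proximal was -0.32 (SE 0.08, adjusted p 0.0160) and distal minus middle 0.28 (SE 0.08, adjusted p 0.0206), both by limma. Cd55 was the only one of the 4 members other than Mbl2 called for middle minus proximal, where 25% of all genes were called. The first call was lost without any 1 of 5 arrays (adjusted p 0.0534 to 0.0670: proximal young low-fat, old low-fat and old high-fat, middle young low-fat and old low-fat), and the second without any 1 of 4 (0.0552 to 0.0808: the young and old low-fat arrays of the middle and of the distal segment). The young high-fat pool was apart, with 0.03 between middle and proximal where the other pools had -0.46, -0.46 and -0.37. On diet, Cd55 differed by -0.29 for the proximal (adjusted p 0.478), -0.00159 for the middle and -0.21 for the distal segment (adjusted p 0.430).

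Taking the 5 tested members as a list, the median diet difference was -0.12 in the proximal segment, -0.22 in the middle one and -0.21 in the distal one, beside medians of -0.03, 0.000645 and -0.01 over all 11922 genes. Mbl2, chosen for its fall, is among the 5, so these medians are not free of that choice. The diet differences of C2, Cfb, Cfi and Cd55 were 0.05, -0.12, 0.34 and -0.29 in the proximal segment. They were -0.39, -0.22, 0.15 and -0.00159 in the middle segment and -0.58, -0.11, -0.14 and -0.21 in the distal segment. For age the medians were -0.04, 0.03 and -0.05, beside 0.00285, 0.02 and 0.00376 over all genes. Over the pool means none of the 5 was called for age by limma (1 at an unadjusted p under 0.05, Cfi, -0.16, adjusted p 0.242), while 2.91% of all genes were. An unadjusted p under 0.05 was reached by 2124 of all 11922 genes.

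**Figure D3:**
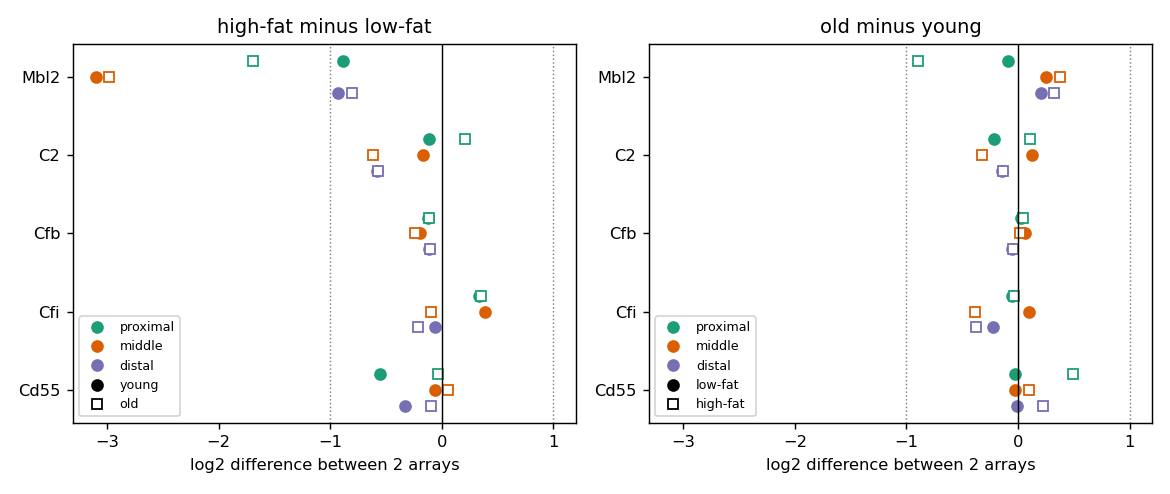
Log2 differences between pairs of arrays for the 5 tested members, high-fat minus low-fat on the left and old minus young on the right; colours give the segment, filled circles the young (left) or low-fat (right) pair, open squares the old or high-fat pair, and dotted lines mark 2-fold. The Mbl2 diet differences lie between -3.10 and -0.80 and the other members stay within 0.62 of 0 on both sides.

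The rest of the complement system was described with a list of 45 genes, of which 41 had a probe set and 25 were tested. On the high-fat diet 1 gene of the 25 passed the limma test in every segment, with a lower level in each. Of all genes, 0.319%, 2.54% and 0.528% were called for diet from proximal to distal. Itgax and Cr1l were also lower in all 6 diet pairs of arrays but were not called for diet. The called gene was C4bp, encoding the binding protein that holds C4b in check in the classical and lectin pathways. Its levels for young low-fat, young high-fat, old low-fat and old high-fat mice were 5.80, 5.19, 5.67 and 5.05 in the proximal segment, 5.73, 5.39, 5.73 and 5.36 in the middle one and 6.25, 5.65, 5.82 and 5.28 in the distal one. Both low-fat arrays lay above both high-fat arrays in each segment, and all of its values are close to the filter. Of the 7 arrays over the filter 6 were low-fat, so that C4bp entered the tests largely through its higher group. In the proximal and middle segments no high-fat array was over the filter. By limma the differences were -0.61 (SE 0.07, adjusted p 0.0183), -0.36 (SE 0.07, adjusted p 0.0456) and -0.57 (SE 0.07, adjusted p 0.0197) from proximal to distal, and -0.51 (SE 0.05, adjusted p 0.00311) over the pool means. In the fit of all genes without the filter the adjusted p-values were 0.0420, 0.118 and 0.0521 within segments and 0.0157 over the pool means, so that the middle and distal calls were lost.

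The pool mean call of C4bp was kept in all 9 alternatives tried for it, and the calls within segments in 11 of 21, 5 of 20 and 10 of 21 alternatives in the proximal, middle and distal segment, with the sign kept in all. Leaving out any 1 array ended the middle call (adjusted p 0.0603 to 0.560), leaving out any 1 proximal or middle array ended the proximal call (0.0767 to 0.200), and leaving out any 1 middle or distal array ended the distal call (0.0610 to 0.227).

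C8g, the gene of the gamma chain of C8 and a lipocalin, moved the other way. It read 5.62, 6.18, 5.63 and 6.32 in the middle segment and rose by 0.63 on the high-fat diet (SE 0.11, limma, adjusted p 0.0324). Over the pool means it rose by 0.30 (SE 0.06, adjusted p 0.0454), a value that became 0.13 (adjusted p 0.420) without the middle segment. The middle call was lost without any 1 middle or distal array (adjusted p 0.0596 to 0.505) and without the filter (0.0632), which in that segment only its high-fat arrays passed. The pool mean call was also lost without the filter (0.126) and under median centring or a second quantile normalization (0.0501 and 0.0712). In the proximal segment the difference was 0.27 and in the distal segment -0.01. Medians over the 25 genes were -0.09, 0.13 and -0.25 for diet in the proximal, middle and distal segment. Clu, encoding clusterin, a soluble inhibitor of membrane attack, passed 2-fold in the young proximal pair (1.09), and Serping1, encoding C1 inhibitor, which also blocks the lectin pathway proteases, in the old distal pair (-1.09). Neither gene passed the limma test for diet. Markers of other cells varied with diet as well. In the distal segment 8 of 8 fibroblast (median -0.63), 10 of 10 endothelial (-0.29) and 10 of 11 myeloid markers (-0.16) were lower on the high-fat diet. In the middle segment 8, 8 and 9 of them were higher. The part of these cells in the diet differences of complement genes was not tested.

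**Figure D4:**
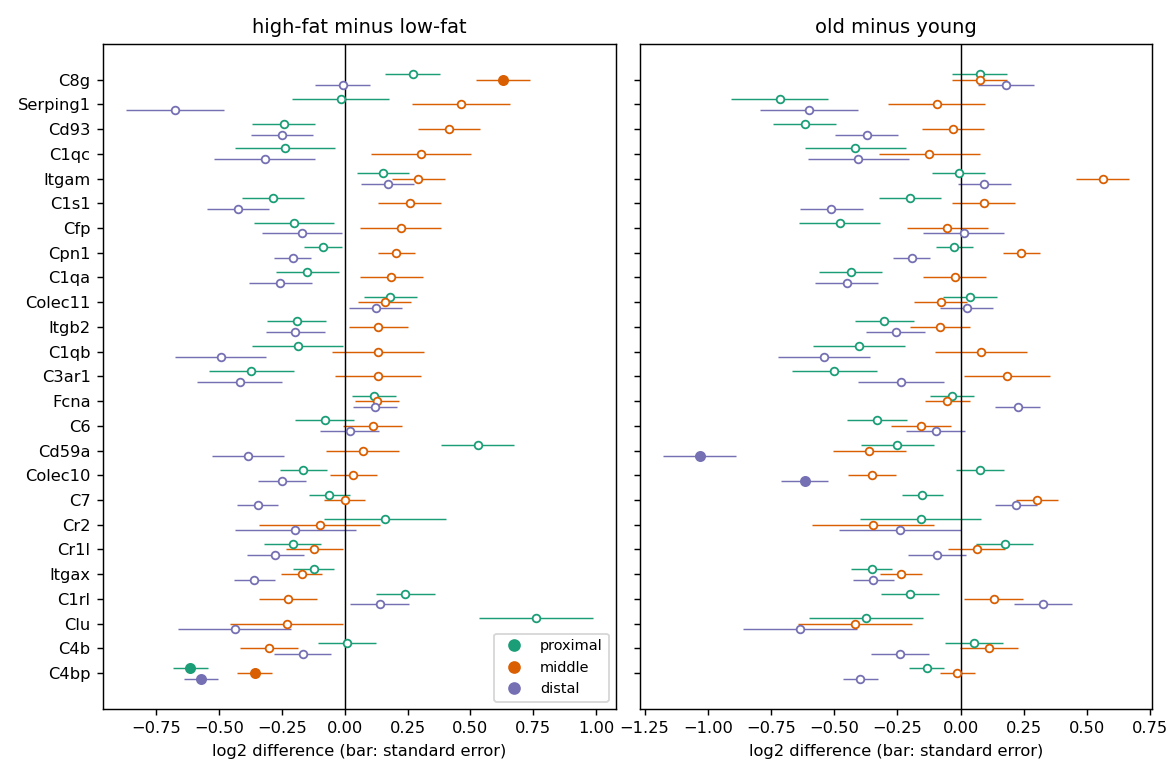
Log2 differences by diet (left) and age (right) of the 25 tested genes of the wider complement list, with standard errors, ordered by the diet difference in the middle segment; colours give the segment and filled points passed the adjusted p of 0.05. C4bp is filled in all 3 segments on the left and C8g in the middle segment, and on the right Cd59a and Colec10 are filled in the distal segment.

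With age, 2 of the 25 genes passed the test in the distal segment, both lower in old mice, beside 0.654% of all genes (22 rose and 56 fell). Both entered the test only through young distal arrays, 1 array over the filter for Cd59a and 2 for Colec10, and without the filter neither was called (adjusted p 0.0558 and 0.0829). Cd59a, encoding a membrane inhibitor of the attack complex, differed by -1.03 (SE 0.14, limma, adjusted p 0.0386) and Colec10, encoding a collectin that recognises sugars in the lectin pathway, by -0.62 (SE 0.09, adjusted p 0.0461). Cd59a read 5.95 and 5.55 in young and 4.91 and 4.53 in old low-fat and high-fat mice there, and Colec10 6.19 and 5.88 against 5.51 and 5.33. Both calls were also lost without any 1 middle or distal array (adjusted p 0.0635 to 0.325 for Cd59a and 0.0913 to 0.315 for Colec10).

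Over the pool means 7 of the 25 genes fell with age and none rose, beside the 2.91% of all genes (91 rose and 256 fell). They were C1qa, C1qb and C1qc (-0.30, -0.29 and -0.32), which encode the chains of C1q and are typical of tissue macrophages, Itgax (-0.31), the alpha chain of complement receptor 4, Cd93 (-0.34), Serping1 (-0.47) and Cd59a (-0.55), which was over the filter on 1 young array. Adjusted p-values were between 0.00542 and 0.0330 by limma. All 7 calls were lost without the distal segment (adjusted p 0.0793 to 0.511), where the values fell to -0.16 for C1qb and -0.31 for Cd59a, and the value of Cd93 was -0.20 without the proximal segment. Without the proximal segment 5 of the calls were lost (C1qa, C1qb, C1qc, Serping1 and Cd93, adjusted p 0.0522 to 0.207), without the middle segment 3 (C1qb, C1qc and Itgax, 0.0535 to 0.128), and without the filter all but Serping1 and Cd59a (0.0683 to 0.110). In the middle segment the age differences of the 3 C1q genes were -0.02, 0.08 and -0.12. In the distal segment the low-fat pair gave -0.22 for C1qa, -0.15 for C1qb, 0.03 for C1qc and -0.18 for Serping1. The distal high-fat pair gave -0.68, -0.93, -0.84 and -1.02, so these falls rested largely on the old high-fat array there. For Itgax, Cd93 and Cd59a the distal values were -0.32, -0.24 and -1.05 on the low-fat and -0.37, -0.50 and -1.02 on the high-fat diet. Markers of other cells were lower in old mice as well. Of 11 myeloid markers 1 passed (Csf1r, median of the 11 -0.16), of 10 endothelial markers 5 fell (median -0.25), of 10 smooth muscle markers 8 fell (median -0.73), and of 8 fibroblast markers all 8 fell (median -0.47). The summed smooth muscle intensity in the distal segment was 3994 to 5464 in young and 1748 to 2940 in old mice, the summed fibroblast intensity 2112 to 2686 and 1080 to 1999, and the summed myeloid intensity 2481 to 2615 and 1735 to 2404. Their part in the falls of complement genes was not tested.

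Between segments many genes of the array differed, complement genes among them. In the distal against the proximal segment 5 of the 25 rose (Colec10, C4bp, C7, Cr2 and Itgam) and 10 fell (C1qa, C1qb, C1qc, C6, C8g, C3ar1, Itgax, Itgb2, Cd93 and Cpn1), together 15 of 25 beside the 54.8% of all genes. For 6 of the 15 (Colec10, C6, C7, C8g, Cr2 and Cpn1) no array of the lower segment was over the filter, so that they had entered through the higher one, and all 6 were called in the fit without the filter as well. The largest difference upwards was that of Cr2, complement receptor 2 of B cells and follicular dendritic cells (1.47, SE 0.15, limma, adjusted p 1.7e-05, and 1.2e-05 without the filter), and the largest downwards that of C8g (-1.09, SE 0.12, adjusted p 2.5e-05, and 2.2e-05 without the filter). Of 7 B cell markers tested 6 rose likewise, with a summed intensity of 358 to 377 in the proximal and 386 to 695 in the distal segment, and of 11 myeloid markers 8 fell and 1 rose (Lyz2). Within the terminal pathway, C7 differed by 0.94 and C6 by -0.73, with adjusted p-values of 3.9e-05 and 5.6e-05 without the filter. In the middle against the proximal segment 4 of 25 fell (C4b, C6, Itgax and Cpn1) and none rose, beside the 25% of all genes. C6 entered through 1 proximal array, with no middle array over the filter (limma without the filter, adjusted p 0.00905). In the distal against the middle segment 5 rose (C4b, Colec10, C7, Cr2 and Clu) and 6 fell (C1qa, C6, C8g, C3ar1, Itgax and Itgb2), together 11 of 25 beside the 34.6%. For 5 of these 11 (Colec10, C6, C7, C8g and Cr2) no array of the lower segment was over the filter, and for C6 none of the higher one either. All 5 were called in the fit without the filter as well (adjusted p 0.000408 to 0.0286). Some calls between segments were lost without at least 1 single array (adjusted p 0.0507 to 0.116). They were C4b and Itgax for middle against proximal, and Cd93 and Itgam for distal against proximal. For distal against middle they were C1qa, C3ar1, C4b, C6, Clu, Colec10 and Itgb2.

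The genes whose levels over the 12 arrays were most like those of Mbl2, by Pearson's r, were Nek6 (0.97), Uap1 (0.95), Npc1l1 (0.94), Atf2 (0.94), Mccc1 (0.93) and Ypel5 (0.93). Npc1l1 is the cholesterol uptake protein of the brush border, Uap1 makes UDP-N-acetylglucosamine and Mccc1 is a subunit of an enzyme of leucine breakdown. When the mean of each segment was subtracted first, the 6 highest were Asah2 (0.97), Nek6 (0.97), Slc22a4 (0.97), Serinc3 (0.97), Coro1b (0.96) and Pik3r1 (0.96), so that Nek6 was on both lists. The 12 points share 4 pools of mice and the segment and diet pattern, and the coefficients are a description. The points include the middle arrays that chose Mbl2, so the ranking and the middle diet differences of the genes named are not free of that choice. The diet differences of these 11 genes in the middle segment were between -0.74 and -0.15 for single pairs, far smaller than those of Mbl2. In the distal segment they were between -0.36 and 0.02. Among the complement genes, Cfb had the highest coefficient (0.86 over the 12 arrays, rank 43, and 0.90 with segment means subtracted, rank 93), while C2 had -0.27 and 0.56, and C4bp 0.32 and 0.66.

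**Figure D5:**
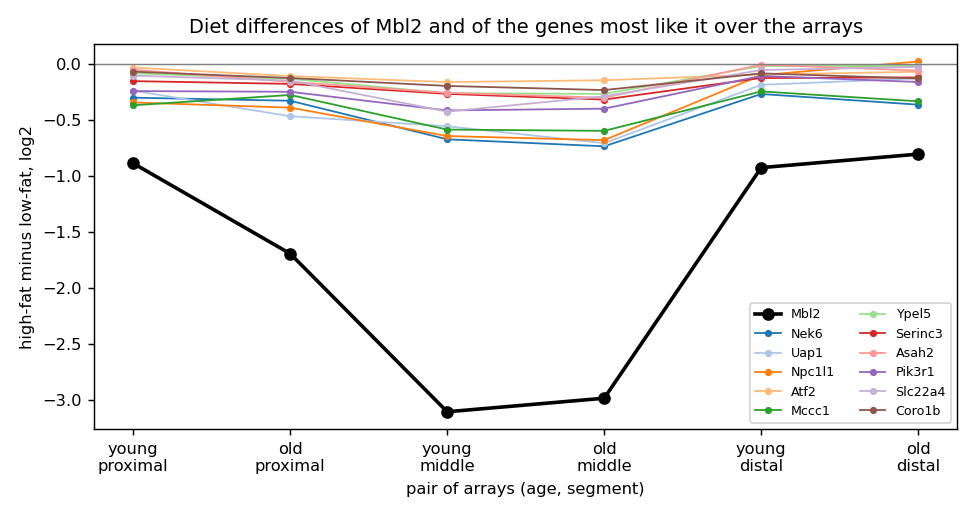
High-fat minus low-fat log2 differences (vertical axis) of Mbl2 (black) and of the 11 genes most like it in the 6 pairs of arrays (horizontal axis), chosen by their correlation with Mbl2 over the same arrays. Mbl2 lies between -3.10 and -0.80 and the other genes between -0.74 and 0.02.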

How the data were processed

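The authors deposited log2 values of 35556 probe sets on 12 arrays, made by RMA (background correction, quantile normalization and summary per probe set) per the labels and the study's methods; the version is not given in the sources used here. Values ran from 1.8 to 14.49 and array medians from 5.57 to 5.70. Of the probe sets, 21789 listed 1 gene symbol, 1621 several and 12146 none. The brightest probe set with exactly 1 symbol, by the mean of 12 arrays, stood for a gene. Genes over an intensity of 50 on at least 1 array were kept and 26 pancreatic acinar genes removed.

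limma 3.58.1 (R 4.3.3, statmod 1.5.0) was fitted to all genes kept: segment, age within segment and diet within segment (9 coefficients, 3 residual degrees of freedom), segments with the pool as a fixed block (6 residual degrees of freedom), and pool means (1 residual degree of freedom). The 2 ages repeat the diet comparison and the 2 diets the age comparison, so an age by diet interaction widens the error. The correlation within pools was -0.08 after age and diet within segment were fitted. The 4 pools are the 4 combinations of age and diet, so this value cannot show whether the segments of a pool are independent. Benjamini-Hochberg adjusted p-values under 0.05 over all 11922 genes were called. Fits were tested on simulated data. Python 3.11.15 with pandas 2.3.3 and matplotlib 3.10.9 did the rest.

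Members, lists and tests were chosen with earlier results of these data known, and the comparisons of age and diet differences between segments, and the fit without the middle segment, were added after seeing the data. Named were all members, complement genes past 2-fold or past a test or among the 4 largest differences, and the 6 genes most like Mbl2 by each of 2 measures. The number of arrays limits the precision.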

Additional observations from a re-analysis of the deposited data

Results flagged for a closer look

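Cd55 was marked because its age differences had opposite signs on the 2 diets in all 3 segments. Old minus young was -0.02, -0.03 and -0.01 on the low-fat diet from proximal to distal (mean -0.0211) and 0.50, 0.10 and 0.22 on the high-fat diet (mean 0.273). The difference between the diets was not tested, the 3 segments of a pool come from the same mice, and the low-fat values are smaller than the residual SD of Cd55 (0.13).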

How the results depend on the processing

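No difference that passed the test, and no diet difference of Mbl2, changed sign in the alternatives tried. Of 1865 values of single genes recomputed, 28 changed sign, all of them for differences of members that did not pass. Over the pool means, the age difference of Cfb became -0.0023 with median centring, -0.0037 with a second quantile normalization, -0.0045 without the proximal and -0.0073 without the middle segment, and that of Mbl2 -0.11 without the middle and -0.087 without the distal segment. For Cd55 the age difference in the middle segment became -0.0030 and -0.0041 with these 2 scalings, and with the second its diet difference there became 0.018 and its distal minus proximal difference 0.0051. Leaving out 1 array gave -0.21 to 0.11 for age and -0.12 to 0.21 for diet of C2 in the proximal segment, -0.32 to 0.13 for age of C2 in the middle segment, -0.39 to 0.10 for age and -0.10 to 0.39 for diet of Cfi in the middle segment, and for Cd55 -0.025 to 0.50, -0.027 to 0.096 and -0.011 to 0.22 for age from proximal to distal and -0.063 to 0.060 for diet in the middle segment. Of 361 counts of called or 2-fold members recomputed, 336 stayed within 1.5 times the main count. For diet over the pool means (1 member called, C2), the count was 0 without the intensity filter, 0 without the middle segment, 0 without the distal segment and 2 with an intensity trend and robust variance (C2 and Cfb). The latter setting called 1 member for diet in the middle segment (Cfb, main 0) and 2 in the distal segment (Mbl2 and C2, main 0). With the arrays of a segment alone, 0 members were called for diet in the proximal (main 1) and 1 in the distal segment (Mbl2, main 0). Without the middle segment, 0 were called in the proximal segment. Leaving out 1 array gave counts from 0 to 1 for diet in the proximal segment, 0 to 1 for diet in the distal segment (1 without any proximal array) and 0 to 1 for middle minus proximal. Of the 1865 values of single genes, 1647 kept their direction and side of the threshold or moved by less than their error. The cause of these changes was not tested. Each combination holds 1 array, all with the same replicate number, so the number pairs nothing, and the block used is the pool of mice: with age and diet in its place (no replicate block), the same number of members was called for each pair of segments.

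Each combination had 1 array, so no spread between pools of 1 kind is known. Probe sets near an intensity of 50, among them Cfi, C4bp, Cd59a and Colec10, lie close to background. The effect of this on the size of their differences was not tested.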
